A study of Mus musculus with 8 samples.

Results

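Aquaporins are channels of the plasma membrane that let water, and in some members glycerol, follow osmotic and concentration gradients. The orthodox members carry mainly water, the aquaglyceroporins also carry glycerol and other small solutes, and the unorthodox members lie largely in intracellular membranes. In the colon, where water is recovered from the luminal content in the wake of salt absorption, AQP8 is known from the surface epithelium, AQP4 from the basolateral membrane of epithelial cells and from glia, and AQP1 from the endothelium of small vessels. The 8 genes described here (*Aqp1*, *Aqp3*, *Aqp4*, *Aqp5*, *Aqp7*, *Aqp8*, *Aqp9* and *Aqp11*) were chosen by name as the aquaporin genes of a table of 26008 genes. The filter for the test, a mean of 10 or more normalized counts, was passed by 5 of the 8 and by 19127 genes of the whole table, and 3 (*Aqp3*, *Aqp5* and *Aqp9*) fell short of it. Of the remaining family members, *Mip* and *Aqp12* were present with a handful of reads, and *Aqp2* and *Aqp6* are not analysed here.

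The data are bulk RNA-seq libraries of colonic biopsies from 4 *Penk*-/- and 4 *Penk*+/+ bone marrow chimeras, with 1 library per mouse. In both groups the recipients were wild-type C57BL/6JRj males, irradiated with 1100 rad at 7 weeks of age and examined 18 weeks after engraftment. The marrow came from male donors of 9 to 11 weeks that either lacked proenkephalin (B6.129-Penk-rstm1Pig/J strain) or were wild type. The genotype is therefore that of the blood-derived cells. The epithelium, the vessels, the muscle and the enteric nervous system, in which aquaporins are mostly found, were wild type and irradiated in all 8 mice, and the comparison asks whether the donor genotype changed aquaporin transcripts of a wild-type colon.

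Each library held 33.1 M to 50.7 M reads counted on genes (median 38.5 M), recovered from the normalized counts. *Penk* itself did not separate the groups (log2 fold change -0.035, adjusted *p* = 0.957 with limma). This value is of whole biopsies, which also held wild-type cells of the recipient, and does not measure *Penk* in the donor cells. The paper reported less *Penk* mRNA in splenic CD4+ T cells sorted from *Penk*-/- chimeras. The libraries bore the markers of the colon. *Hoxb13*, a gene of the hindgut, averaged 13654 and 13727 normalized counts in the *Penk*-/- and the *Penk*+/+ chimeras. Epithelial and muscle markers were abundant, except the muscle marker *Tagln*, with 134 to 231 normalized counts beside 29918 to 53534 for *Acta2*. In 2 libraries, *Penk*-/- replicate 3 and *Penk*+/+ replicate 4, *Pbsn*, which encodes the prostate secretory protein probasin, reached 105658 and 111024 normalized counts. It had 0, 7638 and 4803 in *Penk*-/- replicates 1, 2 and 4, and 13425, 2398 and 0 in *Penk*+/+ replicates 1 to 3. The fold changes of the aquaporins that passed the filter are therefore also given without the 2 libraries with the most *Pbsn*. Some of the libraries kept in that setting also held *Pbsn* reads. Nothing in the labels says that mice of the same replicate number belong together, and *p*-values measure the spread between mice.

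The pore of an aquaporin is lined by a pair of short loops that meet in the middle of the membrane. In most members each loop carries a conserved box, searched here in the coding sequence as AACCCNGCN or AATCCNGCN. Other forms of the box were not searched. In the reference coding sequences of GRCm39 (GENCODE M39, 1 canonical transcript per gene, sense strand and reading frame only), 6 of the 8 genes held the box at 2 places, *Aqp11* held it at 1 and *Aqp7* at 0. Among all 21770 coding sequences searched, 7.37% held it at least at 1 place and 0.698% at 2 or more. Boxes of 6 of the 8 genes, with 9 bases of coding sequence on each side, are shown so that the orthodox water channels and the aquaglyceroporins can be set side by side. Capitals mark the box.
Aqp8 first box (exon 3, chr7:123063425-123063433, plus strand): ggacacttcAACCCTGCTgtgtcgctg
Aqp8 second box (exon 5, chr7:123065834-123065842, plus strand): gcctgcatgAACCCTGCTcgtgccttt
Aqp1 second box (exon 3, chr6:55322822-55322830, plus strand): tgcggtatcAACCCTGCCcggtcattt
Aqp5 second box (exon 3, chr15:99491151-99491159, plus strand): tgttccatgAACCCAGCCcgatctttc
Aqp3 second box (exon 5, chr4:41093841-41093849, minus strand): tatgccgtcAACCCTGCCcgtgacttt
Aqp9 second box (exon 5, chr9:71030132-71030140, minus strand): tgtgccatgAACCCTGCTcgagacctc
Aqp11 only box (exon 2, chr7:97378260-97378268, minus strand): gcattgtttAACCCAGCGctggcactt
The second codon after the second box was gac in both aquaglyceroporins shown, *Aqp3* and *Aqp9*, gcc in *Aqp8*, tca in *Aqp1* and tct in *Aqp5*. In *Aqp7* the letters were not found in this frame, which says nothing about its function.

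The aquaporins of the colon spanned more than 4 orders of abundance, with *Aqp8* far above the others. Levels were compared between genes per length, as normalized counts per kilobase of annotated exon scaled to the same total in every library, and ranks were taken among 25776 genes with a length. *Aqp8* had a per-length level of 1944 ± 368 (SD, *n* = 8), which made it the gene of rank 46, with ranks from 35 to 63 in single libraries. *Aqp4* followed with 193 ± 46.8 (rank 710, from 461 to 943), and *Aqp1* with 75.0 ± 16.6 (rank 2027, from 1485 to 2865). *Aqp11* was in the middle of the table, with 7.41 ± 0.937 (rank 10724). The aquaglyceroporins *Aqp7*, *Aqp9* and *Aqp3* had mean levels of 0.405, 0.158 and 0.111, and *Aqp5*, the water channel of glands and airways, was last with 0.0978.

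**Figure D1:**
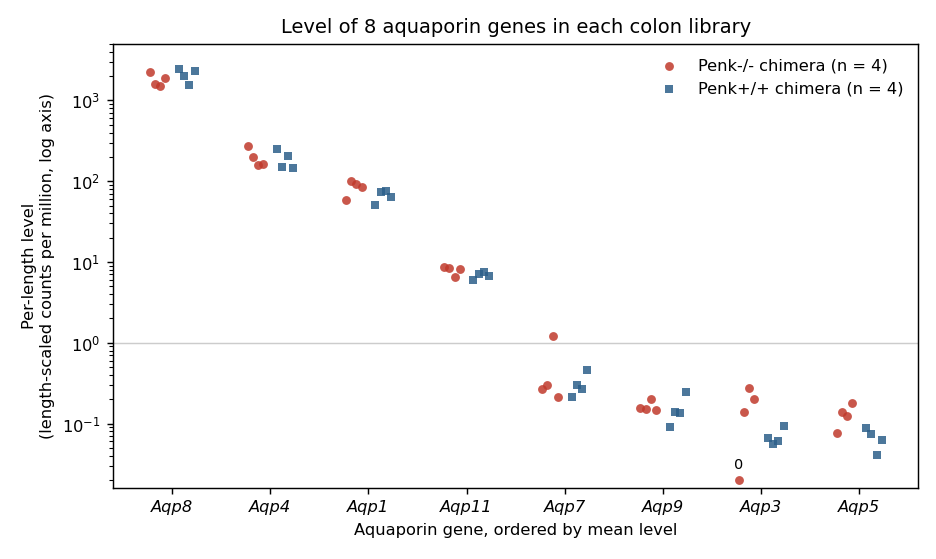
Per-length level (normalized count per kilobase of exon, scaled to the same total per library, log axis) of the 8 aquaporin genes in the 4 Penk-/- (circles) and 4 Penk+/+ (squares) chimeras, 1 point per mouse. The first 5 genes do not overlap each other, with means from 1944 for Aqp8 down to 0.405 for Aqp7. The range of Aqp7 overlaps those of Aqp9 and Aqp3, and the last 3 genes overlap each other. The library in which Aqp3 had 0 reads is drawn at the lower edge.

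The order *Aqp8*, *Aqp4*, *Aqp1*, *Aqp11* and *Aqp7* was kept in 8 of 8 libraries, and the ranges of neighbours did not overlap. The lowest per-length level of *Aqp8* was 1513 and the highest of *Aqp4* was 269, with a ratio of the means of 10.1. *Aqp4* and *Aqp1* were closer, with a ratio of the means of 2.58 and 144 as the lowest level of *Aqp4* against 99.9 as the highest of *Aqp1*. *Aqp7* exceeded *Aqp9* in 8 of 8 libraries although their ranges overlapped. *Aqp9* exceeded *Aqp3* in 6 of 8, and *Aqp3* exceeded *Aqp5* in 4 of 8, so that the last 3 genes could not be placed in order. *Aqp12*, a further unorthodox member, had a mean level of 0.627 and *Mip*, the water channel of the lens, 0.226, from 2 to 10 and 1 to 7 reads per library.

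*Aqp8* alone made up 83.9% to 91.4% of the summed per-length level of the 8 genes, and *Aqp8* and *Aqp4* together 94.3% to 97.9%. The share of *Aqp8* was 87.1%, 83.9%, 85.3% and 88.0% in *Penk*-/- replicates 1 to 4, and 88.8%, 89.5%, 84.2% and 91.4% in *Penk*+/+ replicates 1 to 4. The groups overlapped, with the highest share in a *Penk*+/+ and the lowest in a *Penk*-/- chimera. *Aqp8* exceeded *Aqp4* by a factor of 7.50 to 16.0, both extremes being in *Penk*+/+ chimeras.

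Donor genotype left no called difference in any aquaporin. With limma on log2(normalized count + 1) and Benjamini-Hochberg adjustment over all genes tested, 0 of the 5 tested aquaporins had an adjusted *p* below 0.05 (0.619 to 0.993), against 0.0% of all tested genes. At an unadjusted *p* below 0.05 there were 0 of 5 aquaporins and 1842 genes, or 9.63%, of the whole table. edgeR and voom called 0 genes of the table and DESeq2 called 235 on the recovered reads, none of them an aquaporin. The groups overlapped for 8 of 8 aquaporins, and 5.63% of all tested genes had groups that did not overlap. Of the 5 tested genes 4 had a higher and 1 a lower mean log2 value in *Penk*-/- chimeras, where 51.1% of all genes were higher, and the median log2 fold change was 0.13 against 0.0051 for all genes.

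**Figure D2:**
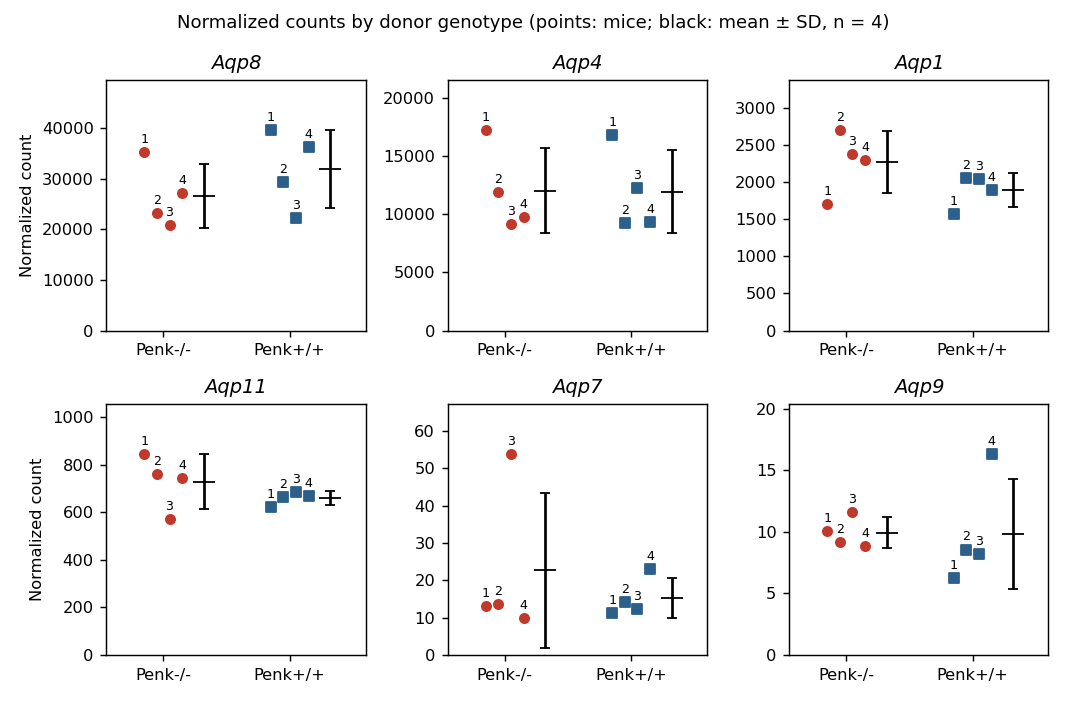
Normalized counts of 6 aquaporin genes by donor genotype, each panel with its own linear axis from 0. Each numbered point is a mouse and the black bar is the mean with its SD (n = 4). Every panel shows overlapping groups, and the Aqp7 mean of Penk-/- chimeras is raised by replicate 3.

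Of the orthodox water channels, *Aqp8* (ENSMUSG00000030762, chr7:123061514-123067227, plus strand) was the one with a lower mean in *Penk*-/- chimeras. Its normalized counts were 35165, 23122, 20809 and 27093 in *Penk*-/- replicates 1 to 4, and 39594, 29247, 22204 and 36140 in *Penk*+/+ replicates 1 to 4. The lowest mouse was a *Penk*-/- and the highest a *Penk*+/+ chimera, but the ranges overlapped over most of their length. The means were 26547 ± 6304 and 31796 ± 7707 (SD, *n* = 4 each). The log2 fold change was -0.25 (standard error 0.21, 95% interval -0.72 to 0.21, adjusted *p* = 0.736 with limma), and the exact permutation test, two-sided, gave *p* = 0.314, where 0.0286 is the smallest value that 4 against 4 mice allow. The interval runs from a fold of 0.609 to one of 1.15. Without the 2 libraries with the most *Pbsn*, the log2 fold change was -0.074. With single mice left out it ran from -0.42 without *Penk*+/+ replicate 3 to -0.14 without *Penk*+/+ replicate 1, and was -0.40 and -0.15 without *Penk*-/- replicates 1 and 3.

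*Aqp8* varied between mice with the markers of the epithelium, and its relations to those of smooth muscle and endothelium were negative. Across the 8 libraries its log2 value correlated with the mean centred log2 value of 7 markers of surface colonocytes (*Car4*, *Krt20*, *Ceacam1*, *Guca2a*, *Slc20a1*, *Lypd8* and *Tmigd1*) with *r* = 0.94 (exact permutation *p* = 0.000893, adjusted *p* = 0.0193 over 65 relations) and rho = 0.90 (exact permutation *p* = 0.00456, adjusted *p* = 0.0593). Without the 2 libraries farthest from the median of the score *r* was 0.89, and within genotypes it was 0.95. With 8 markers of the whole epithelium *r* was 0.87 (exact permutation *p* = 0.000719, adjusted *p* = 0.0193), rho was 0.95 (exact permutation *p* = 0.00114, adjusted *p* = 0.0371), *r* was 0.89 without the 2 farthest libraries and 0.85 within genotypes. Smooth muscle and endothelial scores went the other way and did not pass the adjustment. With smooth muscle *r* was -0.91 (exact permutation *p* = 0.00389, adjusted *p* = 0.0567), rho was -0.83 (exact permutation *p* = 0.0154, adjusted *p* = 0.125), and *r* was -0.95 without the 2 farthest libraries and -0.93 within genotypes. With endothelium *r* was -0.83 (exact permutation *p* = 0.0116, adjusted *p* = 0.0928), rho was -0.86 (exact permutation *p* = 0.0107, adjusted *p* = 0.116), and *r* was -0.62 without the 2 farthest libraries and -0.80 within genotypes. All 8 epithelial markers had a lower mean in *Penk*-/- chimeras (median log2 fold change -0.15, 0 called), with a summed count of 355933 to 476227 in *Penk*-/- and 442851 to 509852 in *Penk*+/+ chimeras. Of the 7 surface colonocyte markers, 5 were lower and 2 higher (median -0.23, 0 called), with *Car4* at -0.35, *Krt20* at -0.23 and *Ceacam1* at -0.32. The 2 higher ones, picked out after their values were seen, were *Guca2a* at 0.27 and *Tmigd1* at 0.22. With the epithelial score as a covariate the log2 fold change of *Aqp8* was 0.076 (adjusted *p* = 0.868 with limma). In bulk tissue, fewer cells of a type and less RNA per cell cannot be told apart.

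*Aqp4* (ENSMUSG00000024411, chr18:15522451-15544039, minus strand) had normalized counts of 17266, 11949, 9144 and 9796 in *Penk*-/- replicates 1 to 4, and 16850, 9244, 12273 and 9351 in *Penk*+/+ replicates 1 to 4. In each genotype 1 mouse, replicate 1, stood above the other 3, and the groups covered the same range. The means of 12039 ± 3685 and 11930 ± 3568 (SD, *n* = 4 each) were nearly equal, and their log2 fold change was 0.012 (standard error 0.24, 95% interval -0.52 to 0.54, adjusted *p* = 0.993 with limma). Without the 2 *Pbsn*-rich libraries it was 0.027, and with the epithelial score as a covariate it was 0.31 (adjusted *p* = 0.639 with limma). The antisense transcript *Gm50048* overlaps the gene, had 13.1 to 41.4 normalized counts, and could share reads with *Aqp4* if strand was not used in counting. *Aqp5*, *Aqp7* and *Aqp9* are also overlapped by annotated transcripts of the opposite strand, and their few reads are uncertain for the same reason.

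*Aqp4* was high where a score of 6 markers of enteric glia was low. The correlation over the 8 libraries was *r* = -0.91 (exact permutation *p* = 7.44e-05, adjusted *p* = 0.00484) and rho = -0.98 (exact permutation *p* = 0.000397, adjusted *p* = 0.0258). It was -0.98 without the 2 farthest libraries and -0.91 within genotypes. With the epithelial score *r* was 0.55 (exact permutation *p* = 0.154, adjusted *p* = 0.335), rho was 0.55 (exact permutation *p* = 0.171, adjusted *p* = 0.397), *r* was 0.14 without the 2 farthest libraries and 0.66 within genotypes. The glial markers *S100b* and *Sox10* had 99.8 to 127 and 97.1 to 193 normalized counts, well below *Aqp4*. *Fabp7*, of the same list and named after its values were seen, had 9.96 to 79.2. It spread most between mice on the log scale and so weighed most in the score. It was highest in the *Pbsn*-rich libraries, with 79.2 in *Penk*-/- replicate 3 and 36.9 in *Penk*+/+ replicate 4. The relation of *Aqp4* to the score without *Fabp7* was not tested. *Erbb3*, a receptor of the same list that epithelial cells also express, had 11933 to 28138. Its *Penk*-/- values all lay below the *Penk*+/+ values (log2 fold change -0.57, adjusted *p* = 0.351 with limma), where 5.63% of all tested genes had separate groups. Of 7 genes listed for the complex that anchors AQP4 at the membrane, 6 had a higher and 1 a lower mean in *Penk*-/- chimeras, with 0 called, and the median log2 fold change was 0.067. Those of *Dmd* and *Dag1*, which encode dystrophin and dystroglycan, were 0.069 and 0.067.

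*Aqp1* (ENSMUSG00000004655, chr6:55313068-55325540, plus strand) had normalized counts of 1709, 2701, 2374 and 2292 in *Penk*-/- replicates 1 to 4, and 1572, 2058, 2040 and 1895 in *Penk*+/+ replicates 1 to 4. Of the 4 *Penk*-/- chimeras 3 were above every *Penk*+/+ chimera, and replicate 1 was below 3 of them. The means were 2269 ± 413 and 1891 ± 225 (SD, *n* = 4 each). The log2 fold change was 0.25 (standard error 0.14, 95% interval -0.064 to 0.57, adjusted *p* = 0.619 with limma), and the exact permutation test, two-sided, gave *p* = 0.171. Without the 2 *Pbsn*-rich libraries it was 0.23. With single mice left out it ran from 0.16 without *Penk*-/- replicate 2, and 0.17 without *Penk*+/+ replicate 1, to 0.38 without *Penk*-/- replicate 1.

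The relations of *Aqp1* to marker scores did not pass the adjustment, and those with several tissues were similar in size. With the score of 8 endothelial markers *r* was 0.88 (exact permutation *p* = 0.00437, adjusted *p* = 0.0567) and rho was 0.90 (exact permutation *p* = 0.00456, adjusted *p* = 0.0593). The *r* was 0.80 without the 2 farthest libraries and 0.89 within genotypes. With the epithelial score *r* was -0.78 (exact permutation *p* = 0.0183, adjusted *p* = 0.108), rho was -0.90 (exact permutation *p* = 0.00456, adjusted *p* = 0.0593), and *r* was -0.95 without the 2 farthest libraries and -0.69 within genotypes. With the smooth muscle score *r* was 0.82 (exact permutation *p* = 0.0148, adjusted *p* = 0.0962), rho was 0.83 (exact permutation *p* = 0.0154, adjusted *p* = 0.125), and *r* was 0.67 without the 2 farthest libraries and 0.88 within genotypes. All 8 endothelial markers had a higher mean in *Penk*-/- chimeras (median log2 fold change 0.15, 0 called). *Pecam1*, *Cdh5* and *Kdr* were at 0.11, 0.23 and 0.15, and the summed count was 4072 to 5970 in *Penk*-/- and 3491 to 5709 in *Penk*+/+ chimeras. Their part in the value of *Aqp1* was not tested. With the epithelial score as a covariate, the log2 fold change of *Aqp1* was 0.070. *Aqp1* and *Aqp8* went in opposite directions between mice (*r* = -0.83, exact permutation *p* = 0.0119, adjusted *p* = 0.0928, and rho = -0.79, exact permutation *p* = 0.0279, adjusted *p* = 0.182). The *r* was -0.73 without the 2 farthest libraries and -0.80 within genotypes.

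**Figure D3:**
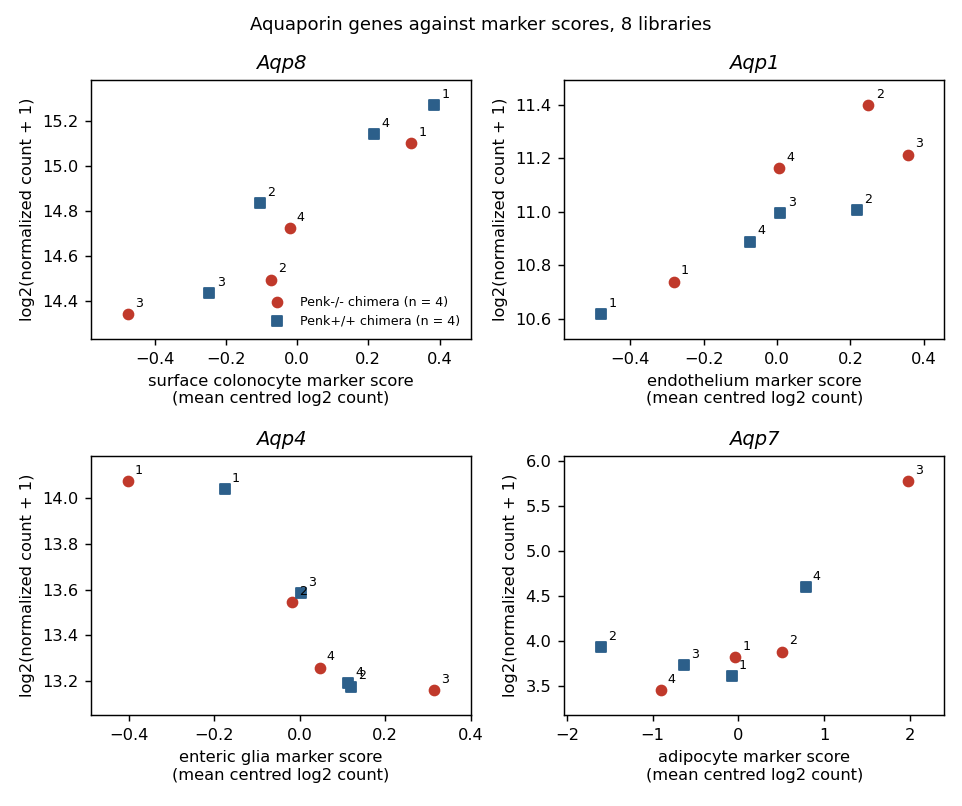
Log2(normalized count + 1) of 4 aquaporin genes on the vertical axes against the score of a marker list on the horizontal axes (mean over the list of log2 values centred on each gene's mean), 1 numbered point per mouse, with circles for Penk-/- and squares for Penk+/+ chimeras. Aqp8 and Aqp1 rise with the surface colonocyte and endothelial scores (r of 0.94 and 0.88), Aqp4 falls with the glial score (r of -0.91), and Aqp7 is highest in the library with the highest adipocyte score.

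*Aqp5* (ENSMUSG00000044217, chr15:99488532-99492710, plus strand) was at the limit of detection, with 20 reads in all 8 libraries and 1 to 4 reads in each. Its normalized counts were 2.02, 3.43, 2.91 and 4.42 in *Penk*-/- replicates 1 to 4, and 2.49, 1.90, 1.02 and 1.71 in *Penk*+/+ replicates 1 to 4. The groups overlapped only in that *Penk*-/- replicate 1 (2.02) lay below *Penk*+/+ replicate 1 (2.49). No fold change is given for counts around 3 reads, the upper limit that a count of 0 allows by counting error.

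The aquaglyceroporins were rare. *Aqp7* (ENSMUSG00000028427, chr4:41032835-41048211, minus strand), the glycerol channel of adipocytes, had normalized counts of 13.1, 13.7, 53.8 and 9.94 in *Penk*-/- replicates 1 to 4, and 11.2, 14.3, 12.3 and 23.2 in *Penk*+/+ replicates 1 to 4. The highest mouse of each genotype was one of the 2 *Pbsn*-rich libraries, and the other 6 lay between 9.94 and 14.3. The means were 22.6 ± 20.8 and 15.2 ± 5.44 (SD, *n* = 4 each). The log2 fold change was 0.27 (standard error 0.49, 95% interval -0.84 to 1.37, adjusted *p* = 0.904 with limma). It became -0.25 without *Penk*-/- replicate 3, -0.039 without both *Pbsn*-rich libraries and -0.40 with the epithelial score as a covariate, so that its sign rested on 1 library. The exact permutation test, two-sided, gave *p* = 0.8.

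*Penk*-/- replicate 3 was also the library with the most adipocyte RNA. The summed count of 7 adipocyte markers was 15310 in it and 1995 to 7197 in the other 7 libraries, with *Penk*+/+ replicate 4 next. All 7 markers had a higher mean in *Penk*-/- chimeras (median log2 fold change 0.82, 0 called), with *Adipoq* at 0.82, *Plin1* at 1.08 and *Cidec* at 0.79. *Aqp7* correlated with their score with *r* = 0.81 (exact permutation *p* = 0.0128, adjusted *p* = 0.0928) and rho = 0.62 (exact permutation *p* = 0.115, adjusted *p* = 0.374), with *r* = 0.82 without the 2 farthest libraries and 0.81 within genotypes. The relation did not pass the adjustment and others were as close. With the score of 5 erythroid markers *r* was 0.80 (exact permutation *p* = 0.00893, adjusted *p* = 0.0928), rho was 0.79 (exact permutation *p* = 0.0279, adjusted *p* = 0.182), and *r* was 0.62 without the 2 farthest libraries and 0.94 within genotypes. With that of 6 posterior *Hox* genes *r* was -0.80 (exact permutation *p* = 0.0203, adjusted *p* = 0.11), rho was -0.55 (exact permutation *p* = 0.171, adjusted *p* = 0.397), and *r* was -0.27 without the 2 farthest libraries and -0.79 within genotypes. Of 8 genes listed for glycerol handling, 6 had a higher and 2 a lower mean in *Penk*-/- chimeras, with 0 called (median log2 fold change 0.28). *Gk*, which encodes glycerol kinase, was at -0.083, and the glycerol phosphate dehydrogenase genes *Gpd1* and *Gpd2* were at 0.45 and -0.048. *Plin1* belongs to both lists. The part of fat tissue in these values was not tested.

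*Aqp9* (ENSMUSG00000032204, chr9:71017928-71075964, minus strand) is the glycerol channel of hepatocytes and is also known from leukocytes, the cells that carried the donor genotype. It had 5 to 19 reads per library and a mean of 9.87, just under the filter. The normalized counts were 10.1, 9.16, 11.6 and 8.84 in *Penk*-/- replicates 1 to 4, and 6.22, 8.56, 8.18 and 16.3 in *Penk*+/+ replicates 1 to 4. The *Penk*-/- values lay inside the range of *Penk*+/+, whose replicate 4 was the highest of all. As for *Aqp7*, the highest mouse of each genotype was one of the *Pbsn*-rich libraries, and no fold change is given without them. In the fit without the filter the log2 fold change was 0.089 (95% interval -0.64 to 0.82, adjusted *p* = 0.970 with limma). The neutrophil markers *S100a8* and *S100a9* were also near the limit, the latter with 1.01 to 13.1 normalized counts, and *Csf3r* had 29.9 to 76.3. *Ly6g*, of the same list and named after its values were seen, had 3061 to 6438 and a lower mean in *Penk*-/- chimeras (log2 fold change -0.42, adjusted *p* = 0.420 with limma), where *S100a8*, *S100a9* and *Csf3r* had higher means. The mean per-length level was 494 for *Ly6g*, far above 1.20 for *Csf3r*, 0.537 for *S100a9* and 0.391 for *S100a8*. Which cells gave the *Ly6g* reads was not tested, and its value is not read as one of neutrophils.

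*Aqp3* (ENSMUSG00000028435, chr4:41092722-41098183, minus strand), a neighbour of *Aqp7*, had 16 reads in all and 0 to 6 per library. Its normalized counts were 0, 2.29, 4.36 and 3.31 in *Penk*-/- replicates 1 to 4, and 1.24, 0.951, 1.02 and 1.71 in *Penk*+/+ replicates 1 to 4. Both the lowest and the highest mouse were *Penk*-/- chimeras, and no fold change is given. The highest mouse of each genotype was again one of the *Pbsn*-rich libraries.

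*Aqp11* (ENSMUSG00000042797, chr7:97373213-97387524, minus strand), an unorthodox member of the endoplasmic reticulum, was the steadiest of the family, with a coefficient of variation of 12.4% over the 8 mice against 17.7% for *Aqp1*, 24.3% for *Aqp8*, 28.0% for *Aqp4* and 77.3% for *Aqp7*. Its normalized counts were 843, 760, 570 and 741 in *Penk*-/- replicates 1 to 4, and 620, 664, 686 and 668 in *Penk*+/+ replicates 1 to 4. Of the *Penk*-/- chimeras 3 were above every *Penk*+/+ chimera, and replicate 3 was below all of them. The means were 729 ± 115 and 659 ± 28.0 (SD, *n* = 4 each). The log2 fold change was 0.13 (standard error 0.11, 95% interval -0.13 to 0.39, adjusted *p* = 0.759 with limma), and the exact permutation test, two-sided, gave *p* = 0.343. It was 0.25 without the 2 *Pbsn*-rich libraries, 0.24 without *Penk*-/- replicate 3 alone, 0.056 without *Penk*-/- replicate 1 and 0.27 with the epithelial score as a covariate.

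**Figure D4:**
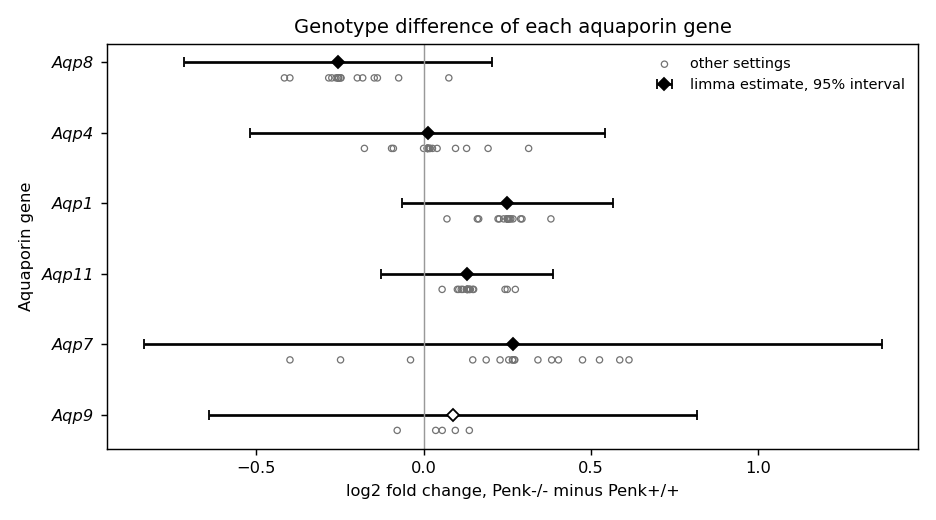
Log2 fold change (Penk-/- minus Penk+/+, horizontal axis) of 6 aquaporin genes. Diamonds with bars are the limma estimates with 95% intervals, the open diamond (Aqp9) comes from the fit without the filter on low counts, and small circles are the estimates under the other settings. Every interval includes 0, from -0.25 for Aqp8 to 0.27 for Aqp7, and the interval of Aqp7 is the widest.

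Water follows salt in the colon, and the ion transporters that drive it were examined from a list of 12 genes. Of these, 5 had a higher and 7 a lower mean in *Penk*-/- chimeras, with 0 called. The median log2 fold change was -0.17 against 0.0051 for all genes. An unadjusted *p* below 0.05 with limma was found for 3 of the 12, and for 9.63% of all tested genes. *Slc9a3*, the apical sodium-proton exchanger, was at 0.22 and *Slc26a3*, the chloride-bicarbonate exchanger of absorptive cells, at -0.36. *Kcnn4*, a potassium channel that supports chloride secretion, had 1353, 1409, 1241 and 1319 in *Penk*-/- replicates 1 to 4, and 1146, 1104, 1091 and 1083 in *Penk*+/+ replicates 1 to 4. All *Penk*-/- values were above all *Penk*+/+ values (log2 fold change 0.27, standard error 0.061, adjusted *p* = 0.339 with limma). Groups that did not overlap, in either direction, were found for 5.63% of all tested genes.

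The hormone and cyclic AMP inputs of water transport gave 5 higher and 4 lower means among 9 tested genes of 10, with 0 called. *Vip*, the secretory neuropeptide, and its receptor *Vipr1* were at -0.029 and -0.027, and *Avpr2*, the vasopressin receptor, was below the filter with 5.05 to 19.4 normalized counts. Of 6 genes of the response to osmotic stress, 5 were higher and 1 lower, with 0 called. *Nfat5*, the tonicity-responsive transcription factor, was at 0.067, *Akr1b1*, the aldose reductase gene listed as *Akr1b3*, at 0.031 and *Slc5a3*, an inositol transporter, at 0.22. *Slc6a6*, the taurine transporter, had groups that did not overlap, as was the case for 5.63% of all tested genes. It had 6401, 6405, 5925 and 6733 normalized counts in *Penk*-/- replicates 1 to 4 and 5352, 4954, 5492 and 4819 in *Penk*+/+ replicates 1 to 4 (log2 fold change 0.31, standard error 0.065, adjusted *p* = 0.325 with limma).

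The genes whose values followed each aquaporin most closely over the 8 libraries were found by Pearson's *r* of log2 values among 19126 genes, as a description without a test. For *Aqp8* they were *Dpp3* (0.99), *Atp2b1* (0.99) and *Ppy* (0.99), for *Aqp4* *Mgat4c* (0.98), *Lmbrd2* (0.97) and *Catsper4* (0.97), and for *Aqp1* *Tuba1b* (0.99), *Dchs1* (0.98) and *Ifitm3* (0.97). For *Aqp7* they were *C6* (0.97), *Pdia4* (0.97) and *Pygl* (0.96), and for *Aqp11* *Gm44950* (0.97), *Wrn* (0.93) and *Sfxn5* (0.93). With 8 libraries and this many genes, these values are high by selection, and the genes of a library share its depth and tissue composition.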

How the data were processed

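Colonic RNA of 4 *Penk*-/- and 4 *Penk*+/+ chimeras was sequenced as stranded, paired-end poly-A libraries. The authors checked the reads with FastQC, used STAR 2.7.8a for alignment to GRCm39 and for quantification, and DESeq2 1.30.0 for the analysis; the strand setting is not given in the sources used here. The deposited values are normalized counts (a signal: read counts divided by a size factor per library), and 100% of them were whole multiples of a step within 0.01, so that reads could be recovered. No 2 libraries agreed within sampling noise (chi-square of at least 11.2 per degree of freedom).

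The main test was that of limma 3.58.1 (R 4.3.3, with trend) on log2(value + 1) for genes with a mean of at least 10, at an adjusted *p* below 0.05. Fold changes on this scale understate those of low genes. Single genes were tested by exact permutation over 70 assignments. Per-length levels used exon lengths of GENCODE M39. edgeR 4.0.16 and DESeq2 1.42.0 ran on recovered reads as alternatives, beside voom, other pseudocounts, filters and scalings, covariates and left-out libraries.

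Members, gene lists and tests were chosen with earlier results of these data known. Named are the 8 members, their relatives, the first 3 genes of each list, genes with separate groups, the 3 closest genes per member and *Penk*. *Tagln* had 134 to 231 counts beside 29918 to 53534 for *Acta2*. In the erythroid, smooth muscle, mesothelium, accessory gland and posterior *Hox* marker lists 0 genes were called. Their median log2 fold changes were -0.26, 0.056, -0.26, -0.037 and -0.036. *Muc3* and *Cxcr2* were not matched. The script versions were Python 3.11.15, numpy 2.4.6, pandas 2.3.3 and matplotlib 3.10.9. Results of some genes named by this rule are not reported here.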

Additional observations from a re-analysis of the deposited data

Results flagged for a closer look

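Among the 8 aquaporins in the 2 genotypes, 16 groups of 4 mice were examined for a mouse far from the others, and 1 stood out, where chance gives about 0.8. *Aqp7* in *Penk*-/- replicate 3 had 53.8 normalized counts, and its gap to the next mouse, 13.7, was 0.913 of the range of the group, above Dixon's 95% critical value for a group of 4. It rested on 74 reads. The same library had the highest summed adipocyte markers (15310) and 105658 counts of *Pbsn*; their part in the value was not tested.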

How the results depend on the processing

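The count of called aquaporins was 0 under 19 of 19 other settings. The number of all genes called was 0 with limma and became 235 with DESeq2 (90 higher, 145 lower), 1 with the epithelial score as a covariate and 0 to 6 when single libraries were left out, with 6 without *Penk*-/- replicate 1. Deviations from the group means correlated between mice of the same number with *r* of 0.15, -0.044, -0.32 and -0.16 for numbers 1 to 4. These values give no sign of a pairing, but 4 pairs of values centred on small groups cannot exclude one. With the replicate block 1 gene was called, 2938 genes had an unadjusted *p* below 0.05 instead of 1842, and no aquaporin was called. Aquaporins with separate groups numbered 0, and 0 to 3 with a library left out: *Aqp1*, *Aqp3* and *Aqp5* without *Penk*-/- replicate 1, *Aqp11* without *Penk*-/- replicate 3, and *Aqp5* and *Aqp9* without *Penk*+/+ replicates 1 and 4. Fewer mice separate more easily, and the share of all genes with separate groups was not counted with a library left out. These counts therefore have no background to be set against. Of 99 log2 fold changes under other settings, 8 turned their sign. *Aqp4* went to -0.18, -0.096 and -0.090 without *Penk*-/- replicate 1 and *Penk*+/+ replicates 2 and 4 and ranged up to 0.19 with a library left out. *Aqp7* went to -0.40 with the epithelial covariate, -0.039 without the 2 *Pbsn*-rich libraries and -0.25 without *Penk*-/- replicate 3, and up to 0.53 with another library left out. *Aqp8* went to 0.076 with the epithelial covariate, and *Aqp9* to -0.079 without *Penk*+/+ replicate 1 and up to 0.14 without others. The cause was not tested. With the longest transcript as length, *Aqp8*, *Aqp1* and *Aqp11* had ranks 64, 2981 and 9842. Depth limits *Aqp3*, *Aqp5* and *Aqp9*, which had 0 to 19 reads per library.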
